A study of Mus musculus with 16 samples.

Results

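A set of 51 genes of the skeletal muscle sarcomere and of muscle calcium handling was followed across brown and white fat of mice with an adipose knockout of the glucocorticoid receptor and of control mice. The genes were named by a list and matched to the array through the RefSeq accession of each probe. All 51 were measured, on 84 probes, among 15454 genes tested. The list was divided by role into thick filament (12 genes), thin filament (9), Z-disc and scaffold (13), calcium handling (10), energy supply (5) and ubiquitin ligases (2). By the fibre type in which each gene is mainly used, 15 were taken as fast, 9 as slow and 27 were not assigned. Each gene is given by its brightest probe unless another is mentioned, and levels are never set against those of another probe.

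The sarcomere is the contractile unit of striated muscle, in which thick filaments of myosin pull on thin filaments of actin between 2 Z-discs. Calcium released from the sarcoplasmic reticulum binds troponin on the thin filament and permits contraction, and a calcium pump then returns it to the store. Fast and slow fibres use different genes for the same parts, for example separate myosin heavy chains and separate troponins. Brown fat lies against back muscle in the mouse, and brown adipocytes descend from cells related to muscle precursors. The glucocorticoid receptor, encoded by Nr3c1, is a ligand-activated transcription factor, and in muscle it is known for inducing the ubiquitin ligase genes Trim63 and Fbxo32, which mark muscle wasting.

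RNA came from male mice in 4 groups, knockout brown fat (AdipoKO_BAT), control brown fat (CTL_BAT), knockout white fat (AdipoKO_WAT) and control white fat (CTL_WAT), each measured on 4 single-colour arrays. The knockout is described as adipose-specific, and the labels used here do not give the promoter that drives it, the strain, the age or the depot of white fat. The control mice are called wild-type in the design text, and no treatment is given for any group. That text calls the 4 arrays of a group biological replicates. Array pairs of the same group were compared over bright probes, however, and for 9 of 24 the differences were smaller than the error that the scanner software assigns. Such arrays were averaged and counted as 1 sample. This left 9 samples, and p-values measure the spread between them. They are knockout brown A (array 1) and B (arrays 2, 3 and 4), control brown A (array 1), B (arrays 2 and 3) and C (array 4), knockout white A (array 1) and B (arrays 2, 3 and 4), and control white A (arrays 1 and 4) and B (arrays 2 and 3).

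On each array 67.3% to 77.0% of spots stood well above background, and 0 were saturated. All levels below are log2 processed intensity relative to the array's 75th percentile, so a step of 1 is a doubling of signal. Nr3c1 was at 1.57 and 1.76 in knockout brown A and B, against 2.53, 2.69 and 2.34 in control brown A, B and C, and at 1.58 and 1.34 in knockout white A and B, against 2.49 and 2.21 in control white A and B. Every knockout sample lay below every control sample of its tissue, but neither difference passed when adjusted over all genes tested with limma (adjusted p = 0.619 in brown and 0.414 in white fat). Control brown B went against its label. Ucp1, the uncoupling protein that defines brown fat, was at -0.75 there, while it was at 5.70 and 5.87 in knockout brown A and B and at 6.61 and 8.13 in control brown A and C. Its level in white fat lay between -2.44 and -0.92. Cidea was also lower in control brown B (2.83) than in the other brown samples (6.98 to 8.71), whereas the muscle and brown fat gene Cox7a1 was not (8.02). The main counts and medians of the members in brown fat are therefore also given without control brown B. Differences and p-values of single genes keep that sample. For the knockout effect in brown against white fat, leaving it out enters only a range of medians.

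The 300-base windows around the transcription start of 6 members are printed because these members carry the comparisons below. Myh4 (chr11:67237562-67237861, plus strand), Pvalb (chr15:78206351-78206650, minus strand) and Mylpf (chr7:127211358-127211657, plus strand) are fast genes, Tnni1 (chr1:135799171-135799470, plus strand) and Myl2 (chr5:122092474-122092773, plus strand) are slow genes, and Trim63 (chr4:134314870-134315169, plus strand) is a ubiquitin ligase gene. The sequences are those of RefSeq on GRCm38.p6, 5′ to 3′ on the gene's strand, 250 bases before the start and 50 after it. Capitals mark CAGCTG, a form of the E-box that myogenic factors bind, and the site of the muscle factor MEF2.
Myh4: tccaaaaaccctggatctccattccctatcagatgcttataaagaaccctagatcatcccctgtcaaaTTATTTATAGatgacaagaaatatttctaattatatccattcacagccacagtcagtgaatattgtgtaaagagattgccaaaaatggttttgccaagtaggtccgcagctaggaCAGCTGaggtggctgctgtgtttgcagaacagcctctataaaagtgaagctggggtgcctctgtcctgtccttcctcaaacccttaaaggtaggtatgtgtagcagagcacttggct
Pvalb: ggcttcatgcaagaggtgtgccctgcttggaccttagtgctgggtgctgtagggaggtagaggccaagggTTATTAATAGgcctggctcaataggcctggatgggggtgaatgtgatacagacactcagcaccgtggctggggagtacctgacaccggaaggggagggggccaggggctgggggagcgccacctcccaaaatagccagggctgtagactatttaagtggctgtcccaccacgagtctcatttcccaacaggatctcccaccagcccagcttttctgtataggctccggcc
Mylpf: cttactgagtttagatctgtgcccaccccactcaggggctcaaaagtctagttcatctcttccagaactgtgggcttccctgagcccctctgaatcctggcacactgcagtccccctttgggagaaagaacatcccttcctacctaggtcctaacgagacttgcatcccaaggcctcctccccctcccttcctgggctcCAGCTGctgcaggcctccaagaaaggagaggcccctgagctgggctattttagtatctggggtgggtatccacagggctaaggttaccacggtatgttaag
Tnni1: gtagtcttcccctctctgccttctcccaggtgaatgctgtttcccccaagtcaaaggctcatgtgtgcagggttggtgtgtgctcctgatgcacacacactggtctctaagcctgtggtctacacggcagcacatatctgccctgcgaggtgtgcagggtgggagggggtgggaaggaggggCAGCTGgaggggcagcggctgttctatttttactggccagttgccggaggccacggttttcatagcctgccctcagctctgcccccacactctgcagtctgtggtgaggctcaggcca
Myl2: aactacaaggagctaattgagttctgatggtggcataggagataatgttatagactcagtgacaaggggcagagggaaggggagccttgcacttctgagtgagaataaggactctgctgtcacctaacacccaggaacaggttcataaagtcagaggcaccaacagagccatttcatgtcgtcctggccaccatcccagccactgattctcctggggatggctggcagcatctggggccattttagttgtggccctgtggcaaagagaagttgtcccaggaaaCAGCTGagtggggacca
Trim63: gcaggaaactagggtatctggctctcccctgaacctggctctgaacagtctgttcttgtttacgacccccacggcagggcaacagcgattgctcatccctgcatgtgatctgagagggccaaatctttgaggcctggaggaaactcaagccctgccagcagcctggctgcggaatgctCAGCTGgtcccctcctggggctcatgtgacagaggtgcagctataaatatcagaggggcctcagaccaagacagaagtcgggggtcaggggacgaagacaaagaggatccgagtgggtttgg

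In Myh4 the E-box began 67 bases and the MEF2 site 182 bases before the start. Mylpf, Tnni1 and Trim63 held CAGCTG at -51, -68 and -72 bases, Myl2 at 33 bases past the start, and Pvalb held a MEF2 site at -180 bases. Windows, taken at the first listed start of each gene, were found for 38 of the 51 members. CAGCTG, which reads the same on both strands, stood in 17 of the 38 (44.7%), against 16.1% of all 27025 windows. It stood in 5 of 10 fast and 4 of 9 slow windows. The wider E-box CANNTG, which includes every CAGCTG, was in 32 of 38 (84.2%) and in 72.1% of all windows. MEF2 sites were in 8 of 38 (21.1%) and in 3.26% of all windows, namely in Pvalb, Myh1, Myh4, Ttn, Xirp2, Casq2, Pgam2 and Myoz2. An exact full palindromic site of the glucocorticoid receptor, AGAACA and TGTTCT with 3 bases between them, was in 0 of the 38 windows and in 1 of all 27025. That search allowed no mismatch, so it does not show that receptor sites are absent. In the Trim63 window the letters tgaacagtctgttct differ from this site at 1 base. The letters CATTCC, read on both strands and found in sites of TEAD factors, were in 13 of 38 (34.2%) and in 14.6% of all windows. These matches are a description of the letters in the window.

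The comparison of tissues asked how brown and white fat of the same genotype differ. In control mice all 51 genes had higher means in brown than in white fat and 49 passed the limma test, where 3.91% of all genes tested were called higher (5.05% were called in either direction). The median difference was 10.12 on the log2 scale, against -0.09 over all genes. The 2 that did not pass were Casq2 (5.78 ± 1.77 SE, adjusted p = 0.12) and Jph2 (5.35 ± 1.49, adjusted p = 0.0946). Differences ran between 4.02 (Myl1) and 14.24 (Myot), where Myot and 6 other members were at background in control white fat. With these 7 set to the bounds given below, the median was 10.1. In bulk tissue fewer cells of a type and less RNA per cell cannot be told apart, and muscle fibres and fat cells as the source of these transcripts cannot be told apart either.

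**Figure D1:**
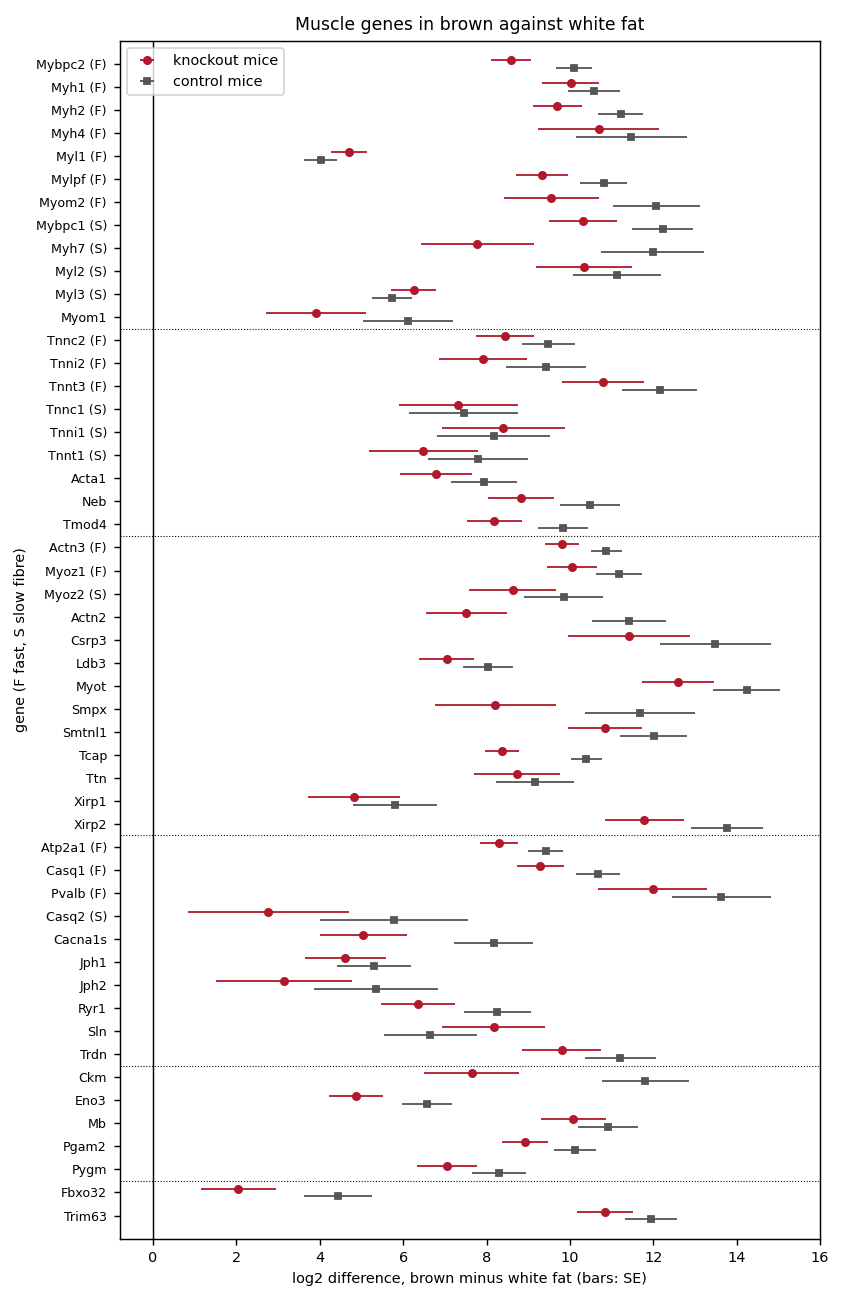
Difference between brown and white fat for the 51 muscle genes. The horizontal axis gives the log2 difference, brown minus white, in knockout and in control mice, and each row is a gene. All points lie to the right of 0, between 2.05 and 12.59 in knockout mice and between 4.02 and 14.24 in control mice.

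All 12 thick filament genes passed, with a median of 10.97. Myh4, the myosin heavy chain of the fastest fibres, was at 9.30, 9.22 and 9.26 in control brown A, B and C, against -3.84 and -0.57 in control white A and B (11.47 ± 1.33 SE, adjusted p = 0.00464). Myh7, the slow myosin heavy chain, was at 8.75, 5.74 and 8.22 in control brown fat, against -4.98 and -3.84 in control white fat (11.98 ± 1.23, adjusted p = 0.00252). The groups did not overlap for either gene. Myosin heavy chain genes are close copies of one another, so the share of signal that each probe takes from its neighbours is uncertain, most of all among Myh1, Myh2, Myh4 and Myh8 and between Myh6 and Myh7. Myl1, a fast essential light chain with the smallest difference by brightest probe, was at 8.37, 8.27 and 8.06 in control brown fat and still at 4.38 and 4.05 in control white fat. Its other probe was at -0.63 and -0.95 in control white fat and gave a difference of 6.71. Mybpc1, a myosin-binding protein of slow fibres, was not well above background on any control white array, and its level in control brown fat was at least 1274.1-fold higher.

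The 9 thin filament genes all passed as well, with a median of 9.42. Tnni2, the fast inhibitory troponin, was at 9.36, 9.18 and 9.05 in control brown A, B and C, against -1.12 and 0.67 in control white A and B (9.42 ± 0.96 SE, adjusted p = 0.00244). Tnni1, its slow counterpart, was at 4.78, 1.14 and 4.28 in control brown fat, against -4.86 and -4.68 in control white fat (8.17 ± 1.35, adjusted p = 0.0201). Control brown B was thus far below the other control brown samples for Tnni1 but not for Tnni2. Acta1, skeletal muscle actin, differed by 7.94 ± 0.79 (adjusted p = 0.0022), and Neb, the ruler protein nebulin, by 10.49 ± 0.72 (adjusted p = 0.000479).

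Z-disc and scaffold genes passed in 13 of 13, with a median of 11.18. Actn3, the fast-fibre actinin that cross-links thin filaments, was at 7.79, 8.17 and 6.99 in control brown fat, against -3.48 and -2.96 in control white fat (10.87 ± 0.37 SE, adjusted p = 0.000134). Its 3 brown samples lay close together relative to that gap. Tcap, which caps titin at the Z-disc, differed by 10.39 ± 0.37 (adjusted p = 0.000134). Myot, Xirp2, Csrp3 and Smtnl1 were not well above background on any control white array. Their levels in control brown fat were at least 6291.1-fold, 5750.3-fold, 2736.6-fold and 1193.7-fold higher, in that order.

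Of the 10 calcium handling genes 8 passed, with a median of 8.21. Pvalb, the calcium buffer parvalbumin of fast fibres, was at 6.75, 7.14 and 6.23 in control brown A, B and C, against -8.29 and -5.55 in control white A and B (13.63 ± 1.18 SE, adjusted p = 0.00123). Atp2a1, the fast calcium pump SERCA1, differed by 9.42 ± 0.42 (adjusted p = 0.000148) and Ryr1, the calcium release channel, by 8.26 ± 0.81 (adjusted p = 0.00219). Casq1, the calcium store protein of fast fibres, was at least 1395.7-fold higher in control brown fat. Jph2, a junctophilin that holds the store to the cell membrane, was at 4.47, 4.97 and 3.79 in control brown fat and at -0.94 and -0.95 in control white fat, without overlap, although it missed the threshold.

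The 5 genes of energy supply passed, with a median of 10.12. Ckm, muscle creatine kinase, differed by 11.81 ± 1.04 SE (adjusted p = 0.00134), Mb, the oxygen store myoglobin, by 10.91 ± 0.71 (adjusted p = 0.000423), and Eno3, muscle enolase, by 6.57 ± 0.60 (adjusted p = 0.00153). Both ubiquitin ligase genes passed. Trim63 was at 3.43, 4.67 and 3.19 in control brown fat and at background in control white fat, at least 868.2-fold higher. Fbxo32, which is also used outside muscle, was at 3.98, 4.66 and 2.64 in control brown fat, against -0.52 and -0.83 in control white fat (4.43 ± 0.82, adjusted p = 0.0291).

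Fast genes passed in 15 of 15 (median 10.81) and slow genes in 8 of 9 (median 8.17). Without control brown B, 45 of the 51 passed (1.95% of all genes), and the median was 9.94, with 10.60 for fast and 9.30 for slow genes. The slow median thus moved by more than the fast one when that sample was left out.

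Knockout mice showed the same direction in every member. All 51 had higher means in knockout brown than in knockout white fat and 42 passed, where 1.28% of all genes were called higher (1.49% in either direction), with a median of 8.40 against -0.04 over all genes. Fast genes passed in 15 of 15 (median 9.55) and slow genes in 6 of 9 (median 7.78). Differences ran between 2.05 (Fbxo32, adjusted p = 0.335) and 12.59 (Myot, adjusted p = 0.00116). Actn3 was at 6.63 and 6.17 in knockout brown A and B, against -3.42 and -3.38 in knockout white A and B (9.80 ± 0.41 SE, adjusted p = 0.000793). Its samples lay within 1 log2 unit of each other in either tissue. Casq2, the calcium store protein of slow and cardiac muscle, was at 1.78 and -0.96 in knockout brown fat, against 0.99 and -5.71 in knockout white fat, so its groups overlapped (2.77 ± 1.94, adjusted p = 0.562). Myot, Csrp3, Mybpc1, Smtnl1 and Trim63 were not well above background on any knockout white array, and were at least 2816.1-fold, 1269.4-fold, 541.1-fold, 532.4-fold and 410.1-fold higher in knockout brown fat, in that order.

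Other muscle genes, taken from lists chosen with earlier results of these data known, were compared as well. The genes named from each list are among those past the threshold with the largest differences. Of 31 further contractile and scaffold genes 20 passed in control mice (median 6.44) and 12 in knockout mice (median 4.60). Nrap, which binds nebulin, differed by 10.23 ± 0.92 SE in control mice (adjusted p = 0.00147), and the sarcomere proteins Klhl40 and Trim54 by 9.32 ± 0.58 and 9.21 ± 0.49. Of 16 further genes of calcium release and reuptake 10 passed in control mice (median 4.19) and 7 in knockout mice (median 2.60), among them Jsrp1, a protein of the sarcoplasmic reticulum junction (9.47 ± 0.50 in control mice), Hrc, a calcium-binding protein of the store (9.32 ± 0.62), and Cacng1, a subunit of the muscle calcium channel (7.95 ± 0.49). Of 18 further muscle energy genes 14 passed in control mice (median 4.22) and 9 in knockout mice (median 3.31). Ckmt2, a mitochondrial creatine kinase, was at least 9209.4-fold higher in control brown fat. Cox6a2, the muscle form of a cytochrome oxidase subunit, differed by 11.26 ± 0.87 and Ampd1, muscle AMP deaminase, by 11.64 ± 1.60. A list of 15 atrophy and glucocorticoid response genes gave 2 in each genotype, Mstn, the growth inhibitor myostatin, and Myod1, a myogenic transcription factor, and its median was 0.14 in control mice.

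Of 8 markers of myogenic cells tested, 4 passed in each genotype (Myf6, Myog, Cdh15 and Myod1), and Pax7, Mymk, Chodl and Des did not. The summed level of the 8, in units of the array's 75th percentile, was 14.2 to 45.0 in knockout brown fat and 33.0 to 77.0 in control brown fat, and 1.3 to 29.2 in knockout white fat and 1.5 to 1.7 in control white fat. Most of that sum is Des, desmin, which smooth and cardiac muscle also express. Without it the sum was 11.7 and 3.66 in knockout brown A and B and 10.9, 20.6 and 7.0 in control brown A, B and C, and 0.365 to 0.426 in the 4 white samples. Pax7, the satellite cell factor, did not pass in either genotype (adjusted p = 0.303 in control mice). Chrna1, a subunit of the acetylcholine receptor of the motor endplate, was at 1.83 and -0.58 in knockout brown fat and at 1.34, 1.52 and 0.91 in control brown fat, but between -6.93 and -5.72 in white fat. Of 6 genes of the neuromuscular junction 2 passed in control mice (Chrna1 and Rapsn, median of the list 1.10) and 1 in knockout mice (Chrna1, median 0.98). Of 10 cardiac genes 1 passed as higher in control brown fat, Myh6, the close copy of Myh7 (11.07, adjusted p = 0.00779), and 1 as lower, Myl7, an atrial light chain (-3.16, adjusted p = 0.0446), with a median of -0.36. In knockout mice 0 of the 10 passed, 3 had an unadjusted p under 0.05, and the median was -1.36. The part of these cells in the difference between tissues was not tested.

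The comparison of brown fat between genotypes asked what loss of the receptor does there. The members were lower in knockout brown fat on average in 50 of 51 genes, with a median of -0.89 against -0.12 over all genes, but 0 passed the limma test (0.0% of all genes were called). At an unadjusted p under 0.05 there were 2, Actn3 and Atp2a1, which is 3.92% of the members, against 7.03% of all genes, and the lowest adjusted p was 0.619. Much of the size of the median came from 1 sample. The median deviation of the members from the control mean was -0.29 in knockout brown A and -1.64 in knockout brown B, against 0.01, 0.46 and -0.41 in control brown A, B and C. Knockout brown B was the lowest of the 5 brown samples in 46 of 51 members, as it was in 39.4% of all genes. Control brown B was the highest in 35 of 51, as it was in 26.3% of all genes. The median was -0.29 without knockout brown B, -1.64 without knockout brown A and -0.70 without control brown B.

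**Figure D2:**
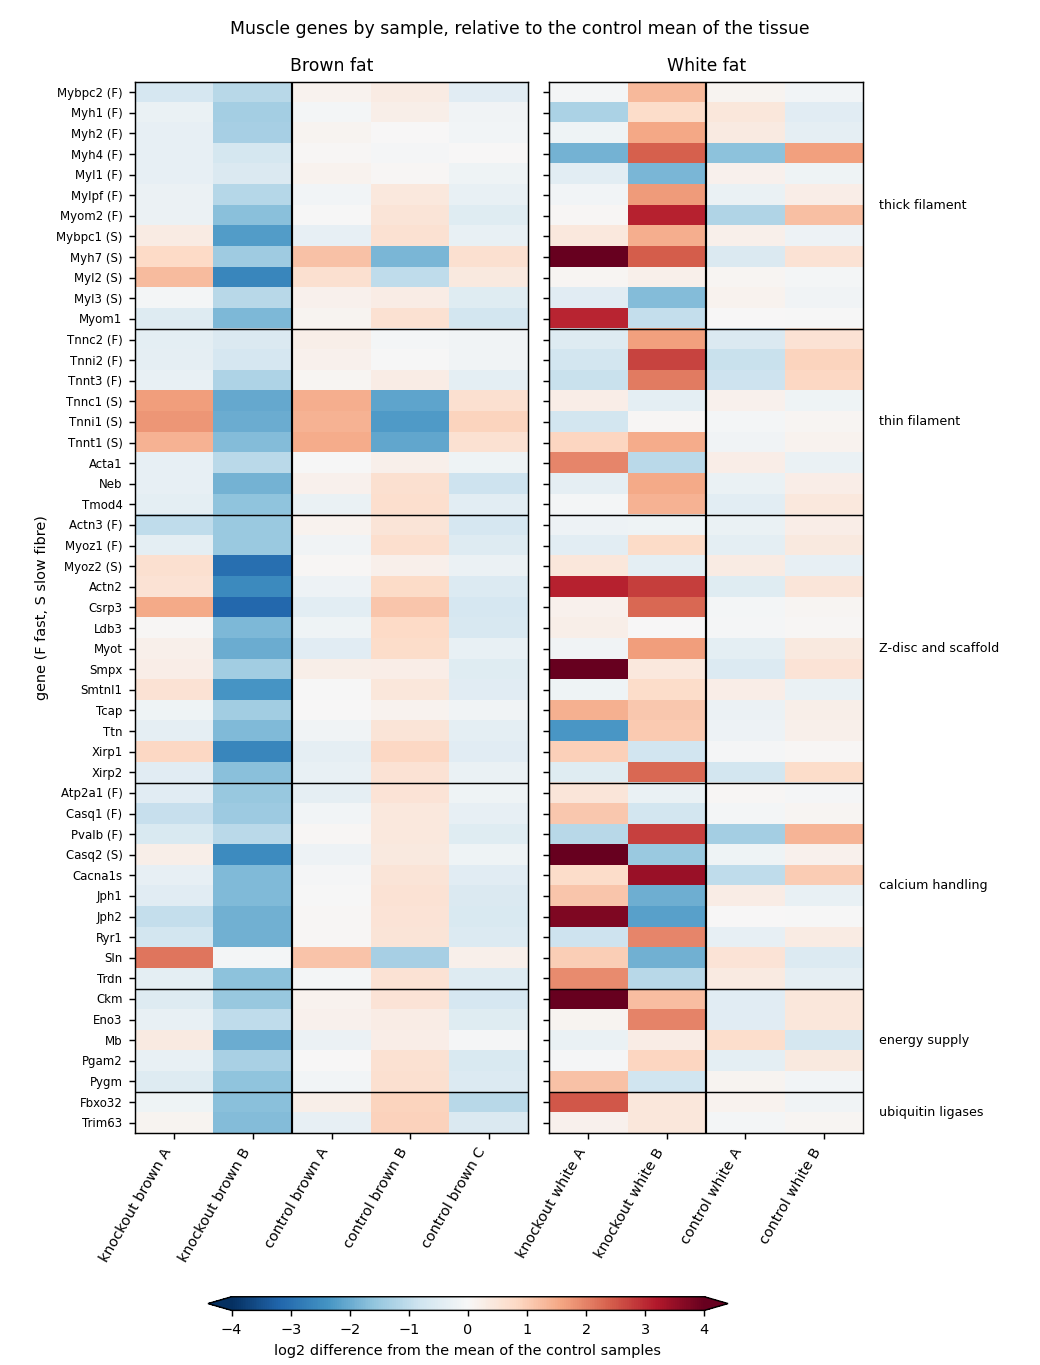
The 51 muscle genes by sample, as the log2 difference from the mean of the control samples of the same tissue. Knockout samples stand left of control samples in each panel, genes are ordered by role, and F and S mark fast and slow genes. Knockout brown B is low for nearly all genes, and troponins of slow fibres are low in control brown B too.

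Both knockout samples lay below all 3 control samples in 16 of the 51 members (21.0% of all genes did so). Of the 15 fast genes 11 were among the lower ones, namely Pvalb, Myh1, Myh2, Myh4, Myl1, Actn3, Tnni2, Tnnc2, Mybpc2, Casq1 and Atp2a1, and of the 9 slow genes 0. The other 5 were Acta1, Xirp2, Ryr1, Tcap and Jph2. Leaving out control brown B could not lower these counts, so it does not test them. They were again 16, 11 and 0, and the 16 are 31.4% of the members, against 27.0% of all genes. These counts use the brightest probe of each gene. The groups overlapped by the other Myl1 probe (5.55 in knockout brown A, 4.99 in control brown C). They also overlapped by 1 Myh2 probe (6.40 in knockout brown A, 5.71 and 5.83 in control brown A and C). By the remaining probes of Myh1, Myh2, Myh4 and Atp2a1 they did not.

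Actn3 was at 6.63 and 6.17 in knockout brown A and B, against 7.79, 8.17 and 6.99 in control brown A, B and C (-1.25 ± 0.37 SE, 58.0% less signal, unadjusted p = 0.0122). Atp2a1 was at 5.59 and 4.53 in knockout brown fat, against 5.69, 6.59 and 5.89 in control brown fat (-1.0 ± 0.42, unadjusted p = 0.049). Both genes lacked overlap between the groups, although knockout brown A lay only slightly below the lowest control for Atp2a1. Casq1 was at 3.51 and 2.98 in knockout brown fat, against 4.34, 4.87 and 4.12 in control brown fat (-1.20 ± 0.52, adjusted p = 0.619). Tnnc2, the calcium-binding troponin of fast fibres, was at 8.77 and 8.57 in knockout brown fat, against 9.38, 9.06 and 9.0 in control brown fat (-0.48 ± 0.63, adjusted p = 0.763).

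Pvalb was at 6.10 and 5.62 in knockout brown A and B, against 6.75, 7.14 and 6.23 in control brown A, B and C (-0.85 ± 1.18 SE, adjusted p = 0.779). Myh4 was at 8.93 and 8.55 in knockout brown fat, against 9.30, 9.22 and 9.26 in control brown fat (-0.52 ± 1.33, adjusted p = 0.884). Myh1, the myosin heavy chain of fast IIx fibres, was at 8.0 and 6.92 in knockout brown fat, against 8.20, 8.50 and 8.13 in control brown fat (-0.81 ± 0.62, adjusted p = 0.645). The pooled SE of Myh4 was wide although its 5 brown levels lay close together, because the fit shares 1 spread per gene with white fat, where its samples lay far apart. Mybpc2, the myosin-binding protein of fast fibres, was at 7.56 and 7.12 in knockout brown fat, against 8.37, 8.55 and 7.78 in control brown fat (-0.90 ± 0.44, adjusted p = 0.619). Tnni2 was at 8.83 and 8.53 in knockout brown fat, against 9.36, 9.18 and 9.05 in control brown fat (-0.52 ± 0.96, adjusted p = 0.832). Both had all control levels above both knockout levels. Mylpf, the fast regulatory light chain, was at 8.14 and 7.24 in knockout brown fat, against 8.25, 8.79 and 8.06 in control brown fat (-0.67 ± 0.56, adjusted p = 0.662). Tnnt3 was at 8.27 and 7.31 in knockout brown fat, against 8.63, 8.86 and 8.18 in control brown fat (-0.77 ± 0.89, adjusted p = 0.735). In these 2 fast genes knockout brown A lay above control brown C, so the groups overlapped.

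Genes used in both fibre types were lower on average as well. Acta1 was at 8.45 and 7.71 in knockout brown A and B, against 8.76, 9.0 and 8.61 in control brown A, B and C (-0.71 ± 0.79 SE, adjusted p = 0.722). Tcap was at 8.42 and 7.20 in knockout brown fat, against 8.58, 8.71 and 8.44 in control brown fat (-0.77 ± 0.37, adjusted p = 0.619). Ttn, the elastic protein titin, was at 5.82 and 4.42 in knockout brown fat, against 6.06, 6.71 and 5.80 in control brown fat (-1.07 ± 0.93, adjusted p = 0.67). Acta1 and Tcap did not overlap, while for Ttn knockout brown A lay inside the control range. For Tcap the gap between knockout brown A and control brown C was smaller than the spread of repeat arrays. Over the members, that spread had a median of 0.11 log2 units in knockout brown B and 0.09 in control brown B. Ckm was at 6.78 and 5.78 in knockout brown fat, against 7.44, 7.85 and 6.63 in control brown fat (-1.03 ± 1.04, adjusted p = 0.698). Mb was at 8.26 and 5.91 in knockout brown fat, against 7.67, 8.19 and 7.87 in control brown fat (-0.83 ± 0.71, adjusted p = 0.666). Pygm, muscle glycogen phosphorylase, was at 4.75 and 3.64 in knockout brown fat, against 5.15, 5.90 and 4.71 in control brown fat (-1.06 ± 0.65, adjusted p = 0.619). For all 3 energy genes knockout brown A lay above at least 1 control sample, and for Mb above all of them.

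Ryr1 was at 5.57 and 4.38 in knockout brown A and B, where the value of B averages 2 of its 3 arrays because 1 spot was an outlier, against 6.35, 6.81 and 5.76 in control brown A, B and C (-1.33 ± 0.81 SE, adjusted p = 0.619). Jph2 was at 3.45 and 2.49 in knockout brown fat, against 4.47, 4.97 and 3.79 in control brown fat (-1.44 ± 1.49, adjusted p = 0.705). Neither gene had overlapping groups, and for Jph2 the SE was as large as the difference. Trim63 was at 3.87 and 2.03 in knockout brown fat, against 3.43, 4.67 and 3.19 in control brown fat (-0.81 ± 0.62, adjusted p = 0.644). Fbxo32 was at 3.60 and 2.09 in knockout brown fat, against 3.98, 4.66 and 2.64 in control brown fat (-0.91 ± 0.82, adjusted p = 0.674). Both ligase genes overlapped between the genotypes. Sln, sarcolipin, a regulator of the calcium pump that also serves heat production in muscle, was the exception, with a higher mean in knockout brown fat. It was at 5.21 and 2.99 in knockout brown fat, against 4.20, 1.72 and 3.25 in control brown fat (1.04 ± 1.12, adjusted p = 0.715), so the groups overlapped.

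**Figure D3:**
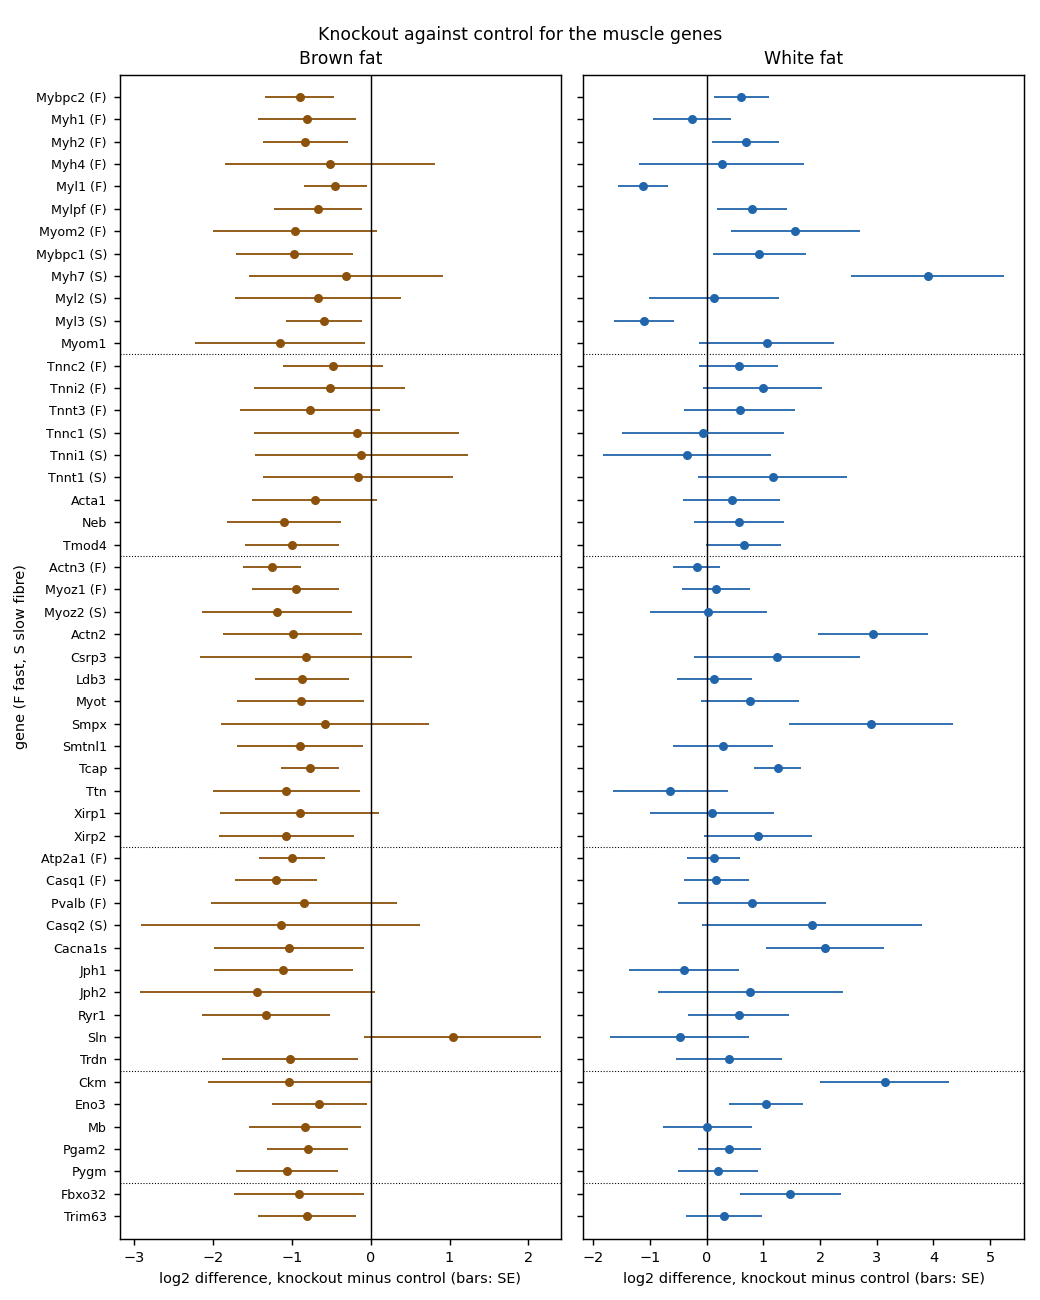
Knockout against control for each of the 51 muscle genes in brown and white fat. Points give the log2 difference, knockout minus control, and bars its SE. In brown fat 50 of 51 points lie below 0, and in white fat 42 of 51 lie above 0, while none passed the test over all genes in either tissue (0 called by limma on the 9 samples).

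Fast and slow genes did not move together across the brown samples. All 15 fast and all 9 slow genes had lower means in knockout brown fat, with medians of -0.83 and -0.59. Relative to the control mean, the fast genes had a median of -0.37 in knockout brown A and -1.25 in knockout brown B, against 0.04, 0.32 and -0.31 in control brown A, B and C. For the slow genes the medians were 0.79 and -2.04 in knockout brown A and B, against 0.64, -1.01 and 0.38 in control brown A, B and C. Without control brown B the medians were -0.63 for fast and -1.18 for slow genes, with all 15 and all 9 lower. Without knockout brown B they were -0.37 for fast genes, all 15 lower, and 0.79 for slow genes, of which 8 of 9 were higher. In knockout brown A, 11 of 15 fast genes lay below control brown A and C and 0 above them, while 0 of 9 slow genes lay below and 6 above (36.2% of all genes lay below and 28.1% above).

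**Figure D4:**
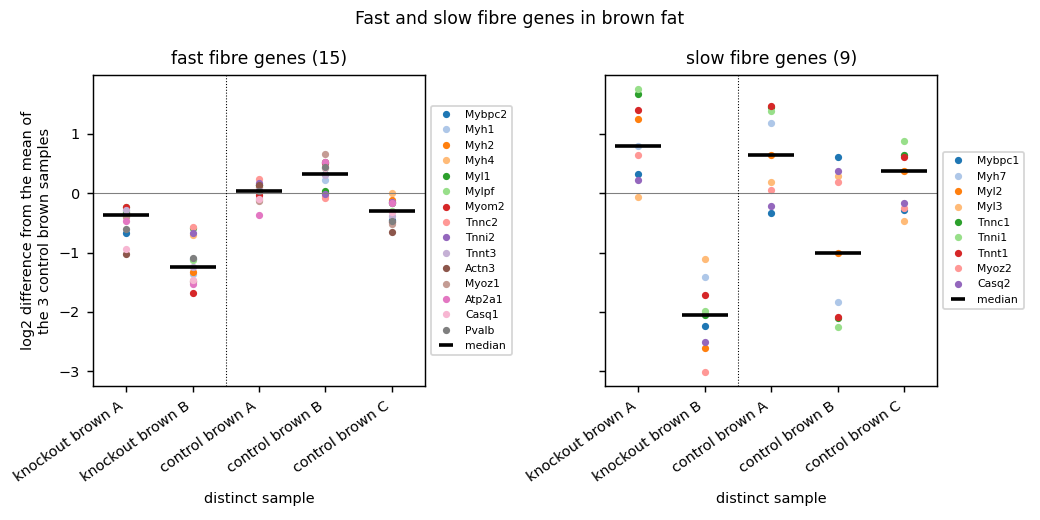
Fast and slow genes in the 5 brown samples. Each point is a gene, the vertical axis gives the log2 difference from the mean of the 3 control brown samples, and the bar is the median. The slow medians of knockout brown B and control brown B are -2.04 and -1.01, where the fast medians are -1.25 and 0.32.

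Tnni1, Tnnc1, Tnnt1, Myh7 and Myl2, 5 of the 9 slow genes, lay at least 1 log2 unit lower in knockout brown B and control brown B than in each of the other 3 brown samples, as did 0 of the 15 fast genes. Over all genes 0.0971% (15 genes) did so. With no minimum gap the same order held for 6 members, these 5 and Sln, and for 6.85% of all genes. This pattern was found after the values were seen, and it crosses the genotypes. Tnni1 was at 5.16 and 1.41 in knockout brown A and B and at 4.78, 1.14 and 4.28 in control brown A, B and C. Tnnc1, the calcium-binding troponin of slow fibres, was at 4.24 and 0.52 in knockout brown fat and at 4.02, 0.47 and 3.21 in control brown fat. Tnnt1, which anchors slow troponin to tropomyosin, was at 7.02 and 3.90 in knockout brown fat and at 7.09, 3.54 and 6.23 in control brown fat. In each of the 3 genes samples fell into a high set of 3 and a low set of 2 that each held both genotypes. Myh7 was at 8.36 and 6.16 in knockout brown fat and at 8.75, 5.74 and 8.22 in control brown fat. Myl2, the slow regulatory light chain, was at 7.07 and 3.21 in knockout brown fat and at 6.45, 4.80 and 6.19 in control brown fat.

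By their brightest probes the other slow genes did not share this split, since Myl3, Mybpc1, Myoz2 and Casq2 were not low in control brown B. A second Myl3 probe was lower in both B samples, by less than 1 log2 unit. That probe was at 1.49 and -1.46 in knockout brown A and B and at 1.19, -0.37 and 0.53 in control brown A, B and C. Myoz2, a Z-disc protein that binds calcineurin, was at 4.56 and 0.90 in knockout brown fat and at 3.97, 4.11 and 3.67 in control brown fat. Among the 10 genes of the pattern that were not members was Atp2a2, the pump SERCA2 of slow and cardiac muscle, at 4.39 and 1.43 in knockout brown A and B and at 4.11, 1.65 and 3.86 in control brown A, B and C. Another was Myh6, the close copy of Myh7. The signal of several fast genes lay near the top of the array's range, where differences may be compressed. In each brown sample 3 to 5 members lay within 1 log2 unit of the brightest probe, of which 3 or 4 were fast and 0 slow. The part of this in the difference between fast and slow genes was not tested.

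Other cell markers also differed among the brown samples. The summed level of 15 lymphocyte markers was 44.9 and 142.8 in knockout brown A and B, against 38.4, 4.1 and 2.1 in control brown A, B and C. That of 8 smooth muscle markers was 168.7 and 78.3 in knockout brown fat, against 181.0, 291.5 and 167.4 in control brown fat, and that of the 8 myogenic markers was 45.0 and 14.2, against 52.3, 77.0 and 33.0 (11.7 and 3.66, against 10.9, 20.6 and 7.0, without Des). Knockout brown B was thus highest for lymphocyte markers and lowest for both muscle lists. Its summed level was also the lowest of the brown samples for adipocyte, brown adipocyte, endothelial, erythroid, mesothelial, tendon and cardiac markers. It was not the lowest for macrophage markers or for Schwann cell and nerve markers. Low levels in that sample were therefore not confined to muscle lists. The part of these cells in the lower muscle genes was not tested. Of the other muscle lists, 0 genes passed in knockout brown fat, with medians of -0.89 for contractile and scaffold genes, -0.92 for calcium genes, -0.85 for energy genes and -0.31 for atrophy and glucocorticoid response genes.

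Scanning slides could be compared in part. On the slide that held arrays of both brown groups, the median of the members was -0.93 with 46 of 51 lower (-0.17 over all genes), with -0.79 for fast genes and -0.36 for slow genes, of which 5 of 9 were lower. With the authors' unscaled intensities, which placed the median of all genes at 0.31, the median of the members was -0.46 with 46 of 51 lower, a value of -0.77 relative to all genes. After quantile normalization it was -0.62 with 47 of 51 lower. When all 16 arrays were taken as separate samples, 22 members were called lower, where 17.8% of all genes were called lower.

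The comparison of white fat between genotypes asked the same question there. Of the 51 members 42 had higher means in knockout white fat and 9 lower, with a median of 0.56 against -0.03 over all genes, and 0 passed the limma test (0.0% of all genes were called). At an unadjusted p under 0.05 there were 5, which is 9.8% of the members, against 9.96% of all genes, and the lowest adjusted p was 0.446 (Tcap). With the authors' unscaled intensities 33 of 51 were higher. Both knockout samples lay above both control samples in 9 members (16.3% of all genes), namely Myh7, Actn2, Tnnt1, Mybpc1, Csrp3, Ckm, Trim63, Fbxo32 and Tcap, and below both in 2, Myl1 and Myl3 (24.1% of all genes). Mybpc1, Csrp3 and Trim63 were not well above background on any white array of either genotype, so for these 3 the order is one of background signal.

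Myh7 was at 0.95 and -1.98 in knockout white A and B, against -4.98 and -3.84 in control white A and B (3.90 ± 1.35 SE, adjusted p = 0.459). Ckm was at 0.55 and -3.28 in knockout white fat, against -4.95 and -4.06 in control white fat (3.14 ± 1.14, adjusted p = 0.464). Actn2, another actinin of the Z-disc, was at -3.36 and -3.66 in knockout white fat, against -6.93 and -5.94 in control white fat (2.93 ± 0.97, adjusted p = 0.448). Its signal was well above background on only 1 of 4 control white arrays, so the size of this difference is uncertain. For Myh7 and Ckm knockout white A stood far above knockout white B, and for Actn2 they lay close together. Tcap was at -0.38 and -0.74 in knockout white fat, against -2.04 and -1.59 in control white fat (1.25 ± 0.41, adjusted p = 0.446). Myl1 was at 3.79 and 2.38 in knockout white fat, against 4.38 and 4.05 in control white fat (-1.13 ± 0.44, adjusted p = 0.485), and Myl3, a slow essential light chain, at 1.14 and -0.13, against 1.74 and 1.46 (-1.10 ± 0.53, adjusted p = 0.52). Cacna1s, the voltage sensor of the muscle membrane, gave 2.09 ± 1.04 by its brightest probe and -0.27 by its other probe. The other Myl3 probe gave 0.12. It was at -3.0 and -1.93 in knockout white A and B, against -2.67 and -2.49 in control white fat, so the groups overlapped. They also overlapped by the other Fbxo32 probe, at -0.19 and -3.83 in knockout white fat, against -2.75 and -3.3 in control white fat. The probes of a gene had the same sign in 10 of the 20 genes with several probes in white fat, and in 20 of 20 in brown fat.

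Some members stood apart in particular white samples. Knockout white A lay at least 1 log2 unit above the other 3 white samples in 10 members (4.32% of all genes), namely Myh7, Acta1, Myom1, Ckm, Casq2, Pygm, Fbxo32, Smpx, Trdn and Jph2, of which 0 were fast. Casq2 was at 0.99 and -5.71 in knockout white A and B, against -4.39 and -4.06 in control white A and B, and Smpx, a small muscle protein, at -0.19 and -5.16, against -6.12 and -5.03. Knockout white B lay below both controls for Casq2 and just under control white B for Smpx. Casq2 was well above background on only 1 of 4 knockout white arrays and Smpx on 2 of 4 control white arrays, so these low levels are uncertain. Smooth muscle and cardiac markers were also highest in knockout white A. The summed level of 8 smooth muscle markers was 613.4 and 43.0 in knockout white A and B, against 88.1 and 85.2 in control white A and B, and that of 10 cardiac markers was 44.7 and 4.2, against 6.2 and 6.1. Their part in these 10 members was not tested.

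Knockout white B and control white B lay at least 1 log2 unit above the other 2 white samples in 7 members (2.62% of all genes), namely Pvalb, Myh4, Tnnt3, Tnni2, Tnnc2, Myom2 and Xirp2. Of these 6 were fast and 0 slow. Xirp2 was not well above background on any control white array, so the order of its controls is one of background signal. Pvalb was well above background on only 2 of 4 control white arrays. Myh4 was at -4.10 and 0.20 in knockout white A and B, against -3.84 and -0.57 in control white A and B. Tnnt3, the fast troponin that binds tropomyosin, was at -4.50 and -1.53 in knockout white fat, against -4.43 and -2.76 in control white fat. In both genes the B samples of either genotype were high. The summed level of 15 lymphocyte markers was 29.5 and 262.0 in knockout white A and B, against 11.1 and 54.0 in control white A and B, so it too was higher in the B samples of each genotype, and its part in this pattern was not tested. The median deviation of the fast genes was -0.42 and 1.54 in knockout white A and B, against -0.26 and 0.26 in control white A and B.

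**Figure D5:**
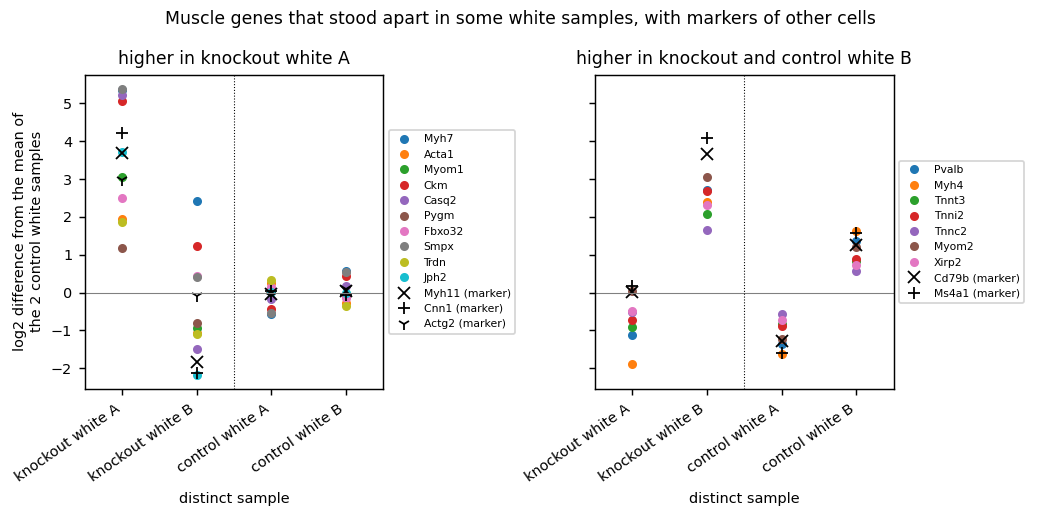
Members that stood apart in some white samples, with markers of other cells. The vertical axis gives the log2 difference from the mean of the 2 control white samples, with knockout samples left of control samples. Coloured points are members and black signs are smooth muscle (Myh11, Cnn1, Actg2) or B cell (Cd79b, Ms4a1) markers. The 10 members of one panel are highest in knockout white A, and the 7 of the other are high in knockout white B and control white B.

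The median of the white members was 0.52 with 42 of 51 higher on the slide that held both white groups. It was 0.12 without knockout white B, 0.77 without knockout white A and 0.29 without control white A. Leaving out knockout white A left 1 member past the threshold, Myl1 (-1.84, adjusted p = 0.0293), where 11.0% of all genes were called. Leaving out knockout white B left 2, Ckm (5.05, adjusted p = 0.0404) and Smpx (5.38, adjusted p = 0.0484), where 0.796% of all genes were called. In each of these fits a group held a lone sample, assumed to vary like the other groups. With all 16 arrays as separate samples, 12 members were called higher and 2 lower, where 19.3% of all genes were called higher and 25.5% lower. Of the other muscle lists 0 genes passed in knockout white fat, with medians of 0.10 for contractile and scaffold genes, 0.32 for calcium genes, -0.34 for energy genes and -0.70 for atrophy and glucocorticoid response genes.

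The knockout effect in brown fat was also set against that in white fat. Its difference, brown minus white, was below 0 in 47 of 51 members, with a median of -1.37 against 0.01 over all genes, and 0 passed the limma test (0.0% of all genes were called, and with all 16 arrays as separate samples 11 members were called lower, where 2.62% of all genes were). At an unadjusted p under 0.05 there were 3, Tcap (-2.02 ± 0.55 SE, unadjusted p = 0.00796), Actn2 (-3.92 ± 1.31, unadjusted p = 0.0201) and Ckm (-4.17 ± 1.55, unadjusted p = 0.0305). They are 5.88% of the members, against 2.59% of all genes, and each had an adjusted p of 1. For Actn2 the size is uncertain, since it was well above background on only 1 of 4 control white arrays. The median of the members was -0.78 without knockout brown B, -2.03 without knockout brown A and -0.12 without knockout brown B and knockout white B.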

How the data were processed

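RNA of 4 groups of male mice was measured on 16 Agilent arrays. Per the labels' protocols, RNA was isolated by Qiagen RNeasy and carried the dye Cy3. Per the file headers, images were read with Agilent Feature Extraction 12.0.0.7, and the deposited values are linear processed intensity with the background subtracted, not scaled between arrays. The authors' value table held the same intensity averaged per probe, equal for all 41174 probes, and was used as an alternative.

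Outlier spots were left out, spots of a probe averaged, and values taken as log2 of the deposited intensity minus the array's 75th percentile. RefSeq accessions named 28223 probes (19096 symbols, GRCm38.p6 table) and left 12951 unnamed and untested. A probe was kept if well above background on all 4 arrays of a group, and the brightest kept probe stood for its gene. Arrays of a group were 1 sample where the median absolute deviation of their difference over the scanner error was below 1. That ratio was 0.373 to 0.654 for the 9 merged pairs and 1.094 to 4.139 for the other 15. Over probes bright on every array, the lowest of these 15 was 0.991, for control white arrays 3 and 4, so an alternative takes all 4 control white arrays as 1 sample. Tests used limma 3.58.1 (R 4.3.3) on 9 samples with 5 residual degrees of freedom, Benjamini-Hochberg within each contrast and a threshold of 0.05. A fold written as "at least" sets the bright group's mean against, per array, the higher of the dim probe's signal and the lowest signal well above background. It is given where the dim group was not well above background on any array. The number of arrays limits the precision.

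Named members were those with the largest differences, those with the smallest p and a set named by role. Patterns found after values were seen are described without a test. The members and lists were chosen with earlier results of these data known. Alternatives were other scalings (authors' unscaled, quantile, normexp with an offset of 50 on the median spot signal, since the mean signal was not used here), other probe rules, 16 separate arrays, blocks and samples left out. The fit was tested on simulated data.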

Additional observations from a re-analysis of the deposited data

How the results depend on the processing

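Brown against white kept its direction in the members under the alternatives run, except for Casq2 in knockout mice, which was at -0.57 without knockout white B (adjusted p = 0.759). Calls numbered 49 in control mice (5.05% of all genes were called) and 42 in knockout mice (1.49%). Without 1 of the control brown samples they numbered 42 to 45 (1.95% to 3.04% of all genes) and 37 to 41 (1.01% to 1.22%). Calls between tissues are not given for fits that left 1 sample in a group. Among these is the fit with all 4 control white arrays as 1 sample, an alternative added after the data were seen. Requiring signal on all 16 arrays left 36 members, with a control median of 9.42. Of these 26 were called in knockout mice, where 0.762% of all genes so kept were called. With normexp the medians were 6.94 in knockout and 8.22 in control mice. The knockout median was 7.77 to 9.18 without one sample (8.43 without knockout white A) and 9.51 without both 3-array knockout samples.

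In brown fat 0 members were called on the 9 samples, 22 with 16 separate arrays (30.6% of all genes), 21 with these and the replicate block (32.2%), and 0 with slide as a block. The median ran from -1.64 to -0.29 without one sample (-0.89 without a white one) and was -0.29 without the 3-array knockout samples. In white fat the counts were 14 (44.8% of all genes) and, with the replicate block, 16 (46.1%). They were 0 to 2 without one sample (1 without knockout white A, where 11.0% of all genes were called, and 2 without knockout white B, 0.796%) and 3 without the 3-array knockout samples (0.925%). For the difference between tissues 11 members were called with 16 arrays (4.15% of all genes) and 5 with the replicate block (2.1%). Its median was -0.75 with unscaled values, -2.03 to -0.78 without one sample (-1.42 without control brown A) and -0.12 without the 3-array knockout samples. Fewer samples or more counted arrays enter these fits, and no other cause was tested. Same-numbered arrays of knockout and control mice correlated at -0.54 to -0.04 in brown and -0.52 to 0.41 in white fat. Because groups hold repeat arrays, these values cannot decide whether such arrays share more than a number. Between tissues the correlation was -0.13 to 0.18 in control and 0.29 to 0.57 in knockout mice, where arrays 2 to 4 are 1 sample per tissue. A block set by array number within each genotype was also fitted to the averaged samples. With it 51 members were called between tissues in control mice (6.98% of all genes) and 44 in knockout mice (2.1%). Naming by the array's own gene name column was not run.

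The precision is limited by 2 or 3 samples a group, and in white fat by signal near background, where 7 members were not well above it on any control array and 5 on any knockout array.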

Other observations

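Myh8, the neonatal myosin heavy chain, was bright in brown fat, at 8.82 and 8.61 in knockout brown A and B, against 9.34, 9.16 and 9.04 in control brown A, B and C. It lay between -0.69 and 1.14 in white fat. As for Myh4, a close copy, both knockout levels lay below all control levels, and the probes' sharing of signal is uncertain. Myh3, the embryonic myosin heavy chain, lay between -2.84 and 0.17 in brown fat. Among the genes that were low in both knockout brown B and control brown B were Pitx1, a homeobox factor, at -0.89 and -3.05 in knockout brown A and B and at -0.92, -2.86 and -1.19 in control brown A, B and C, and Mhrt, a noncoding RNA beside Myh7, at -1.58 and -4.78, against -1.76, -5.60 and -2.32. Dio2, which activates thyroid hormone in brown fat, was at 0.51 and -0.54 in knockout brown fat, against 0.53, -0.74 and 0.98 in control brown fat.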
